A study of Mus musculus with 36 samples.

Results

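Of the 36 deposited libraries, each made from 1 subcutaneous mouse tumor, 30 were set against each other by their level of S100a8, a transcript abundant in neutrophils. Read counts per gene were scaled to the total assigned to genes in each library (CPM). The 35 libraries kept were first divided into 3 expression classes. Libraries with H2-Ea-ps above 10 CPM formed the H2-Ea-expressing class (11 libraries), those with Cp above 1000 CPM the Cp-high class (12 libraries) and the remainder the Cp-low class (12 libraries). Within each class, the 5 libraries with the most S100a8 are called S100a8-high and the 5 with the least S100a8-low, which gave 15 against 15 libraries and left 5 in the middle. These groups were set by a measured level and are not treatment groups. One further library, PancO2 anti-PD-1 71, took no part.

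By the labels, all tumors grew in wild-type mice aged 12 weeks. MC38, a colon adenocarcinoma line, and PancO2, a pancreatic adenocarcinoma line, were grown in C57BL/6J mice, and CT26, a colon carcinoma line, in BALB/c mice. Each mouse received control IgG, anti-CTLA4 or anti-PD-1 at 10 mg per kg intraperitoneally, with 4 libraries in each of 9 labelled groups. The S100a8-high libraries were labelled IgG in 8 cases, anti-PD-1 in 4 and anti-CTLA4 in 3. The S100a8-low libraries were labelled IgG in 2 cases, anti-PD-1 in 5 and anti-CTLA4 in 8. MC38, CT26 and PancO2 labels were borne by 5, 5 and 5 S100a8-high libraries and by 4, 7 and 4 S100a8-low libraries. The expression classes cut across these labels, and H2-Ea-ps, which C57BL/6 mice do not express, was found in libraries labelled with either strain. Labels are therefore given only as labels, and the class, not the labelled line, served as the block in every fit. Each library is named by its label and mouse number.

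Neutrophils are short-lived granulocytes that leave the bone marrow under the growth factor G-CSF, encoded by Csf3. They enter tissue along gradients of chemokines that bind the receptor CXCR2, among them the products of Cxcl1, Cxcl2, Cxcl3, Cxcl5 and Ppbp. S100a8 and S100a9 encode the paired subunits of calprotectin, the main cytosolic protein of neutrophils, which monocytes and stressed keratinocytes also make. In tumors, neutrophils have been tied both to tumor growth and to suppression of T cells. Most granule proteins are transcribed in marrow precursors, so a mature tissue neutrophil carries little mRNA for them.

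The CXCR2 ligand genes lie together on mouse chromosome 5, and several of them moved together with S100a8, so the sequence before their starts is shown. Promoters were matched by symbol in RefSeq (GRCm38.p6) for 4 of 6 genes looked up, Cxcl1, Cxcl2, Cxcl3 and Ppbp. The stretch from 100 to 31 bases before the start is printed 5′ to 3′ for 3 of them, all on the plus strand, at chr5:90891145-90891214 (Cxcl1), chr5:90903799-90903868 (Cxcl2) and chr5:90786001-90786070 (Cxcl3). Capitals mark matches to an NF-κB core motif (GGG, any 3 bases, then TTCC) on either strand, and matches overlap where the motif reads on both strands.
Cxcl1: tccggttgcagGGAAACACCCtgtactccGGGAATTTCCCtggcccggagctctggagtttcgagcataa
Cxcl2: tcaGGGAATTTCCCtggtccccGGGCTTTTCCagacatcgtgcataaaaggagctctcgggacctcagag
Cxcl3: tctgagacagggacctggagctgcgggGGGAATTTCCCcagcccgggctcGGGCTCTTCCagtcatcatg
Each of the 3 stretches held 3 matches, counting both strands. The same 70-base window held at least 1 match in 315 of 27025 promoters (1.17%). The letters were not found in this window of Ppbp, S100a8 or S100a9. A match is a description of the sequence and was not tested for binding.

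S100a8 (ENSMUSG00000056054), the gene that set the groups, is given as levels without a test. In the H2-Ea-expressing class, its level was 1.86, 2.35, 2.59, 2.69 and 3.19 CPM in the S100a8-low libraries, 3.59 in the middle library and 4.02, 4.04, 7.33, 8.99 and 10.0 in the S100a8-high libraries. In the Cp-high class, it was 3.72, 8.26, 8.67, 10.2 and 10.6 CPM in the S100a8-low, 10.8 and 11.01 in the middle and 12.4, 12.8, 13.0, 14.1 and 39.4 in the S100a8-high libraries. In the Cp-low class, it was 3.20, 3.22, 3.81, 4.02 and 6.22 CPM in the S100a8-low, 7.21 and 10.7 in the middle and 13.4, 26.995, 28.9, 36.4 and 66.4 in the S100a8-high libraries. The split was therefore wide in the Cp-low class and narrow in the Cp-high class, where 4 of 5 S100a8-high libraries lay within 12.4 to 14.1 CPM and just above the middle libraries.

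**Figure D1:**
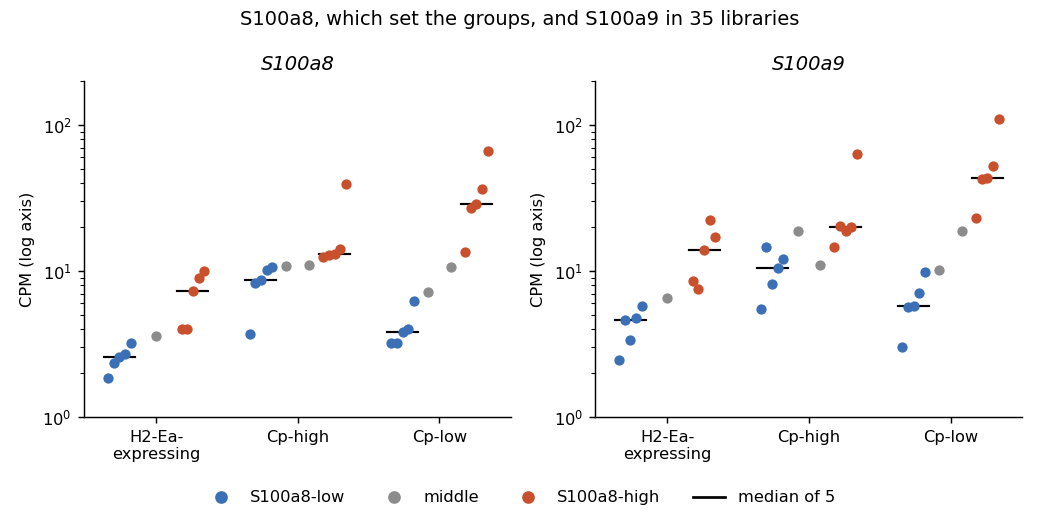
Levels of S100a8 and S100a9 in CPM (log axis) in each of 35 libraries, by expression class. Points are libraries, bars the medians of 5, and the widest gap between S100a8-high and S100a8-low libraries is in the Cp-low class for both genes.

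Whether these libraries are rich in neutrophils was checked against defining markers. Ly6g, the usual surface marker of mouse neutrophils, had no count in 24 of 35 libraries and reached at most 0.297 CPM. All 5 S100a8-high libraries of the Cp-low class were among the 11 with any count, at 1 to 9 counts each. The granule genes Elane (at most 0.0719 CPM), Camp (at most 0.282 CPM) and Ltf (at most 1.07 CPM) were near 0 in every library. Csf3r, the G-CSF receptor, and Cxcr2 were found in all 35 libraries, at 7.05 to 67.4 and 3.65 to 17.3 CPM. The libraries are accordingly named by S100a8 and not by a cell type. In bulk tumors, fewer cells of a type and less RNA per cell cannot be told apart. Ly6g belongs to a family of similar genes whose shared reads may be lost in counting, so its level is uncertain.

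The first comparison asked which other genes follow S100a8 across all 30 libraries, with class as a block. Of 16729 genes tested, 15 (0.0897%) rose in the S100a8-high libraries, 0 fell, and the others did not pass an adjusted p of 0.05 (edgeR's quasi-likelihood test, two-sided, Benjamini-Hochberg). They were S100a9, Retnlg and Lcn2 among alarmin and granule genes, Csf3, Cxcl1, Cxcl2 and Cxcl5 among recruitment signals, G0s2 among effectors and Il1r2 among receptors, all from lists drawn up for neutrophils, and Chil1, U90926, Rab44, Gm5483, Fgf7 and H2-Ea-ps, which were picked after their values were seen. H2-Ea-ps also served to set the classes, and nearly all its counts came from the class it defines, so its call is given no weight. It is given below as levels only, and tallies of called genes by class leave it out. Totals of called genes, such as the 15, still include it. At an unadjusted p under 0.05, 612 genes were higher (3.66%) and 884 lower (5.28%), and the smallest adjusted p among lower genes was 0.19. The median log2 fold change of all genes was -0.006.

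S100a9 (ENSMUSG00000056071), the partner of S100a8 in calprotectin, was the only gene of at least 10 CPM called in this fit whose S100a8-high and S100a8-low libraries did not overlap in any class (0.00598% of genes). Its level was 2.45 to 5.75 CPM against 7.59 to 22.3 in the H2-Ea-expressing class and 3.03 to 9.83 against 23.1 to 110 in the Cp-low class. In the Cp-high class, the highest S100a8-low library, at 14.6 CPM, all but met the lowest S100a8-high library, at 14.7. The log2 fold change was 2.08 (SE 0.29, adjusted p = 0.00051).

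Retnlg (ENSMUSG00000022651), which encodes a resistin-like protein of neutrophils, was a rare transcript that rose by a log2 fold change of 2.32 (SE 0.35, adjusted p = 0.0013). Its level in the Cp-low class was 4.13, 5.23, 4.47, 6.498 and 14.1 CPM in the S100a8-high libraries and at most 1.35 in the S100a8-low libraries. In the other classes, the highest S100a8-low library (0.299 and 0.945 CPM) lay above the lowest S100a8-high library (0.249 and 0.729 CPM).

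Lcn2 (ENSMUSG00000026822) encodes lipocalin 2, an iron-sequestering granule protein that epithelial cells also release. It rose by a log2 fold change of 2.14 (SE 0.43, adjusted p = 0.038). The call held in 13 of 30 fits that each left out 1 library. Lcn2 was most abundant in the H2-Ea-expressing class, at 11.5 to 52.7 CPM against 1.66 to 12.2, so there the groups overlapped. It ran from 1.97 to 9.44 against 0.253 to 0.845 CPM in the Cp-low class, without overlap.

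Of the 24 alarmin and granule genes listed beside S100a8, 15 passed the filter on low counts. Of these, 3 rose, 0 fell and 12 were not called, beside 15 of 16729 genes (0.0897%). The list median was 0.47 beside -0.006 for all genes. By their estimates, 12 of the 15 were higher and 3 lower, among them Ctsg (-0.64, SE 0.34). Within the classes, the list median (18 genes tested) was 0.16 in the H2-Ea-expressing, 0.47 in the Cp-high and 0.89 in the Cp-low class. Among the uncalled, 3 were just short of the threshold. They were Cd177, a neutrophil surface protein (log2 fold change 1.42, SE 0.30, adjusted p = 0.054), Stfa2l1, a stefin-type protease inhibitor (1.77, SE 0.40, adjusted p = 0.085), and Asprv1 (1.92, SE 0.43, adjusted p = 0.085). Asprv1 had 899 counts in PancO2 IgG 48, the library with the highest skin gene sum (given below), and at most 99 counts in any other. The part of skin in its estimate was not tested. The neutrophil collagenase gene Mmp8 (0.15, SE 0.25) and the gelatinase gene Mmp9 (0.01, SE 0.29) were not called, and Mmp9 ran from 234 to 594 CPM in the S100a8-high and from 321 to 502 CPM in the S100a8-low libraries of the Cp-low class.

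Recruitment signals held the steepest change. Csf3 (ENSMUSG00000038067) rose by a log2 fold change of 4.24 (SE 0.48, adjusted p = 1.8e-05). Its level in the Cp-low class was 4.72, 9.34, 24.2, 13.9 and 13.6 CPM in the S100a8-high libraries and 0.317, 0.506, 0.777, 0.620 and 0.836 CPM in the S100a8-low libraries, in order of rising S100a8. The means, 13.2 ± 7.21 and 0.611 ± 0.210 CPM (SD, n = 5 each), differed 21.5-fold, and the middle libraries, at 1.21 and 2.19 CPM, lay between both groups. In the Cp-high class, the S100a8-low libraries together held 1 count of Csf3 and the S100a8-high libraries 67, a ratio of 46.7 with a 95% interval from 8.11 to 1873 (exact binomial, counting error only). Of these 67, most came from 2 libraries, PancO2 anti-PD-1 70 (0.934 CPM) and PancO2 IgG 48 (0.645 CPM). In the H2-Ea-expressing class, no library but the middle one exceeded 3 counts, so no fold is given. A count of 0 allows 0.0719 to 0.254 CPM, depending on the library.

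Cxcl5 (ENSMUSG00000029371) rose by a log2 fold change of 1.95 (SE 0.31, adjusted p = 0.0034). Its level depended most on class. In the Cp-high class, it was 90.2, 453, 261, 142 and 745 CPM in the S100a8-high and 51.9 to 134 CPM in the S100a8-low libraries, so one S100a8-high library lay inside the other group's range. It was far scarcer in the Cp-low class, at 6.28 to 19.96 against 0.211 to 1.83 CPM, without overlap. In the H2-Ea-expressing class, it stayed between 1.17 and 5.55 CPM in all 10 libraries.

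Cxcl1 (ENSMUSG00000029380) rose by 1.82 on the log2 scale (SE 0.32, adjusted p = 0.012). It ran from 73.1 to 143 against 7.04 to 44.2 CPM in the Cp-low class and from 16.5 to 40.4 against 7.48 to 14.2 CPM in the H2-Ea-expressing class, without overlap in either. In the Cp-high class, where Cxcl1 was scarce, it ran from 0.243 to 5.83 against 0.0931 to 0.713 CPM and the groups overlapped. Cxcl2 (ENSMUSG00000058427) rose by 1.85 (SE 0.33, adjusted p = 0.012), with 14.2, 18.8, 52.8, 37.1 and 39.5 CPM against 2.04 to 7.59 CPM in the Cp-low class. Its groups overlapped in the other 2 classes.

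Of the 14 recruitment genes, 9 passed the filter, of which 4 rose, 0 fell and 5 were not called, with a list median of 1.69, beside 15 of 16729 genes (0.0897%) and a median of -0.006 over all genes. This list, like the others, was chosen with earlier results of these data known, so its share describes and is no independent evidence. Uncalled were Il6, which encodes a cytokine that raises neutrophil production (1.69, SE 0.37, adjusted p = 0.080), Cxcl3 (1.52, SE 0.38, adjusted p = 0.23), Ppbp, Csf2 and Il23a. Il17a and Il22, cytokines that act upstream of Csf3 and Cxcl1 in epithelium, were at 0 in 29 and 33 of 35 libraries. The related gene Il17f was found in more libraries, at 0 to 7 counts each.

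**Figure D2:**
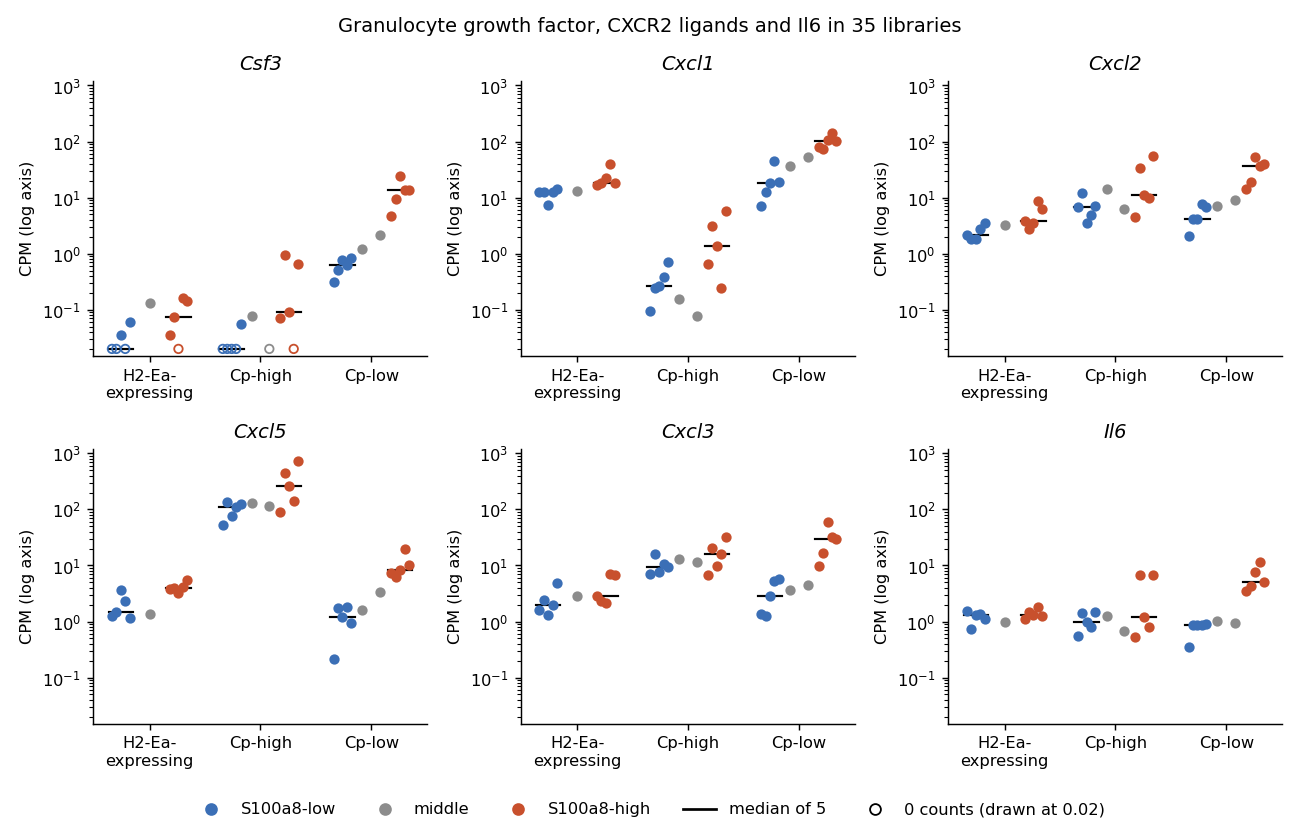
Levels in CPM (log axis) of Csf3, 4 CXCR2 ligand genes and Il6 in 35 libraries by class; points are libraries, bars the medians of 5, and open points libraries without a count. In the Cp-low class every S100a8-high library lies above every S100a8-low library for all 6 genes, while in the other classes the groups overlap for most of them.

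Among effectors, G0s2 (ENSMUSG00000009633), an inhibitor of fat breakdown expressed in neutrophils, rose by 1.83 (SE 0.33, adjusted p = 0.012), from 0.211 to 1.41 CPM to 1.93 to 6.05 CPM in the Cp-low class. With Cxcl2, it was 1 of 2 that rose among 18 cytokine and effector genes, and 16 were not called (list median 0.70), beside 15 of 16729 genes (0.0897%). Il1b, which encodes the inflammatory cytokine IL-1β, had a log2 fold change of 1.24 (SE 0.33, adjusted p = 0.29). It ran from 36.1 to 101 CPM against 1.83 to 31.02 CPM in the Cp-low class. Hdc, the histamine-forming enzyme (1.15, SE 0.25, adjusted p = 0.080), and Osm, the cytokine oncostatin M (0.86, SE 0.20, adjusted p = 0.10), were likewise not called.

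Of 14 receptor genes tested, 1 rose, 0 fell and 13 were not called (list median 0.25), beside 15 of 16729 genes (0.0897%). By their estimates, 11 of the 14 were higher and 3 lower. Among the lower were Siglece (-0.27, SE 0.16, adjusted p = 0.62) and the integrin gene Itgam (-0.22, SE 0.10, adjusted p = 0.54). Il1r2 (ENSMUSG00000026073), the decoy receptor for IL-1, rose by 0.85 (SE 0.16, adjusted p = 0.024). It ran from 13.2 to 20.6 against 6.95 to 10.7 CPM in the Cp-low class, without overlap, and from 1.38 to 3.56 against 0.970 to 1.44 CPM in the H2-Ea-expressing class. Cxcr2 (0.44, SE 0.13, adjusted p = 0.39), Csf3r (0.36, SE 0.16, adjusted p = 0.54) and the pattern receptor gene Clec4e (0.58, SE 0.24, adjusted p = 0.53) were not called. Neither the 8 genes tested for the NADPH oxidase and extracellular traps (median -0.09) nor the 7 for granulocyte transcription factors (median 0.04) held a called gene.

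The other 6 called genes were mostly scarce. Chil1, which encodes a chitinase-like protein (1.87, SE 0.36, adjusted p = 0.021), U90926, a gene of unassigned function (2.20, SE 0.42, adjusted p = 0.021), and Gm5483, a stefin-family gene with near copies (1.94, SE 0.39, adjusted p = 0.035), had means of 0.904, 0.502 and 0.669 CPM in the S100a8-high libraries. Rab44, which encodes a large Rab GTPase (0.88, SE 0.18, adjusted p = 0.030), averaged 4.79 against 2.31 CPM, and Fgf7, a fibroblast-derived growth factor for epithelium (0.65, SE 0.13, adjusted p = 0.045), 38.6 against 24.2 CPM. With 1 library left out at a time, Chil1 and U90926 were called in 27 of 30 fits, Il1r2 in 26, Rab44 in 18, Gm5483 in 14 and Fgf7 in 12. Fgf7 was at 0.896 to 3.87 CPM in the Cp-high class and at 24.8 to 100 CPM in the other 2 classes.

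H2-Ea-ps (ENSMUSG00000036322), an MHC class II gene, was used to set the classes and did not exceed 3 counts in any library of the other classes, so it is described without a test. Within the class it defines, the S100a8-high libraries held 103, 83.9, 111, 98.0 and 134 CPM and the S100a8-low libraries 76.5, 50.7, 57.9, 32.8 and 45.5 CPM, without overlap.

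The second comparison asked whether genes followed S100a8 in all 3 classes or in 1, from a fit with a separate S100a8-high and S100a8-low mean for each class (17405 genes tested). In the Cp-low class, 20 genes rose (0.115%) and 0 fell. This fit pools the spread of all 30 libraries. Fitted on the 10 libraries of the class alone, 2 of the 20 were called, Csf3 and Il6, and leaving out 1 library at a time gave 9 to 29 genes, the fewest without MC38 anti-CTLA4 11. In the H2-Ea-expressing and Cp-high classes, 0 genes were called by edgeR (0%), where 849 and 1018 genes had an unadjusted p below 0.05, with smallest adjusted p of 0.21 and 0.58. DESeq2 called 7 and 4 genes there and limma-voom 1 and 0. The 14 genes of the blocked fit other than H2-Ea-ps had a higher estimate in all 3 classes, although the Csf3 estimate in the H2-Ea-expressing class rests on at most 3 counts per library.

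The medians of these 14 estimates were 1.30 in the H2-Ea-expressing, 1.55 in the Cp-high and 2.62 in the Cp-low class. Of the 14 genes, 2, 1 and 12 had no overlap between S100a8-high and S100a8-low libraries in these classes, where 0.897%, 0.634% and 1.68% of all genes were higher without overlap. S100a9, for instance, had estimates of 1.69 (SE 0.44), 1.42 (SE 0.42) and 3.09 (SE 0.44). The genes were picked from the same libraries, so these counts describe them and are no independent evidence.

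**Figure D3:**
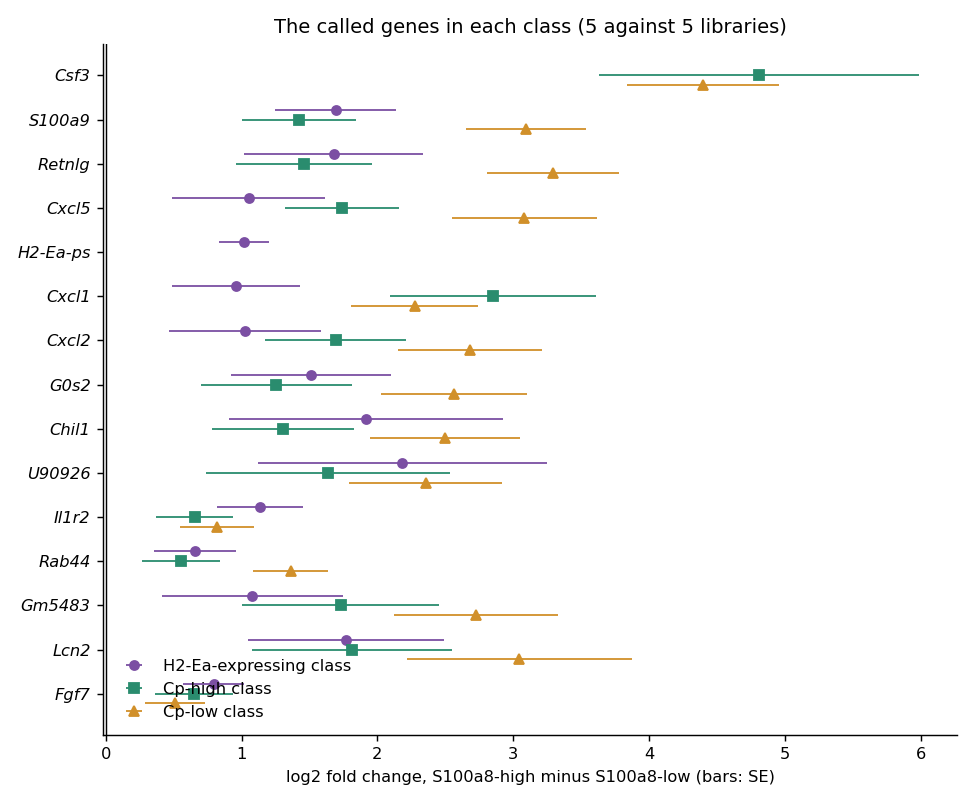
Log2 fold change (S100a8-high minus S100a8-low, 5 against 5 libraries, bars SE) of the 15 called genes within each class; classes in which no library exceeds 3 counts are left out. Estimates lie above 0 in every class drawn, and for 10 genes the Cp-low estimate is the highest of those drawn. H2-Ea-ps, which served to set the classes, is drawn only in the class it defines, and its estimate is given no weight.

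Of the 20 genes that rose in the Cp-low class, 8 were also called in the blocked fit, Csf3, S100a9, Retnlg, Cxcl5, Cxcl2, Rab44, G0s2 and Cxcl1. The other 12 were the recruitment genes Cxcl3, Il6, Csf2 and Ppbp, the neutrophil-listed genes Hdc, Cd177 and Stfa2l1, and Il11, Il33, Entpd3, Cd14 and Il13ra2, of which the last 5 lie outside the neutrophil lists and were picked after their values were seen. In all, 8 of the 10 recruitment genes tested in this fit were called, beside 20 of 17405 genes (0.115%), with a list median of 2.48 beside 0.003 over all genes in that class. Because the lists were chosen with earlier results of these data known, this share is no independent evidence. With 1 library left out at a time, the Cp-low calls of Csf3, S100a9, Retnlg, Hdc, Il11, Cxcl3, Il33, Il6 and Cxcl5 held in all 30 fits. Those of Csf2 and Ppbp held in 26, Entpd3 in 25, Cd177 in 23, Stfa2l1 and Cxcl2 in 21, Rab44 and Cd14 in 20, G0s2 in 14, Cxcl1 in 13 and Il13ra2 in 11. Only 10 of the 30 fits left out a Cp-low library, and the rest kept every library of this contrast. For Hdc, Il11, Cxcl3, Il33, Il6 and Cxcl5, the highest adjusted p over the 30 fits was 0.049 (edgeR), just under the threshold.

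Il6 had 3.50, 4.28, 7.63, 11.5 and 5.11 CPM in the S100a8-high and 0.352 to 0.893 CPM in the S100a8-low libraries of the Cp-low class (log2 fold change 3.02, SE 0.53, adjusted p = 0.0084). In the H2-Ea-expressing class, both groups lay between 0.750 and 1.83 CPM (0.24, SE 0.53). Cxcl3 ran from 9.89 to 59.3 against 1.26 to 5.79 CPM (3.13, SE 0.54, adjusted p = 0.0084). Csf2, the gene for GM-CSF, a growth factor of granulocytes and macrophages, had 2.49 to 3.94 against 0.282 to 1.10 CPM (2.21, SE 0.42, adjusted p = 0.021), and estimates of 0.17 (SE 0.51) in the Cp-high and -0.76 (SE 0.50) in the H2-Ea-expressing class.

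Il33, which encodes an alarmin of the IL-1 family, ran from 9.33 to 24.5 against 1.79 to 10.4 CPM in the Cp-low class (2.06, SE 0.35, adjusted p = 0.0084). It was at 137 to 309 CPM in all 10 libraries of the Cp-high class (0.18, SE 0.31). Il11, a cytokine of the IL-6 family, had 1.599 to 2.86 against 0.778 to 1.21 CPM (1.37, SE 0.24, adjusted p = 0.0084). Cd14, the monocyte and macrophage co-receptor for bacterial lipopolysaccharide, had the smallest difference of the 20, 48.01 to 58.9 against 30.3 to 40.1 CPM (0.55, SE 0.11, adjusted p = 0.038).

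None of these differences was shown to be particular to the Cp-low class. The test of unequal differences between classes called 0 of 17405 genes (0%) by edgeR, DESeq2 and limma-voom, with 1039 at an unadjusted p under 0.05 by edgeR and a smallest adjusted p of 0.78. For Csf2, that test gave an unadjusted p of 0.00024 (edgeR), for Cd14 0.00064 and for Il33 0.0017. The contrast of each class with the mean of the other 2 also called 0 genes.

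Transcripts of other cells moved with S100a8 in some libraries. The 20 skin keratinocyte genes found in the table, from a tissue that also makes S100a8 and S100a9, summed to 1159 CPM in PancO2 IgG 48, the highest S100a8-high library of the Cp-high class, and to 193 CPM in CT26 IgG 29, an S100a8-high library of the Cp-low class. The other S100a8-high libraries had sums of 17.9 to 45.8 CPM in the Cp-high class and 8.13 to 17.8 CPM in the Cp-low class, beside 15.8 to 47.0 and 5.59 to 47.2 CPM in the S100a8-low libraries. Krt14 reached 210 CPM in PancO2 IgG 48 and 46.3 CPM in CT26 IgG 29. Sums in the middle libraries were 107 and 16.2 CPM in the Cp-high class and 82.6 and 9.89 CPM in the Cp-low class. In the H2-Ea-expressing class, the sums overlapped (68.6 to 93.2 against 76.6 to 124 CPM), while Krt5, which defines the basal layer, was at 0 in 9 of 10 libraries. Lgals7, at 1021 to 3943 counts per library, made up most of each sum there, while Krt14 had 0 to 3 counts. The sum is therefore no measure of skin in that class, also where it served as a term in a fit.

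Without these 2 libraries, a comparison added after the data were seen, 8 genes were called, all among the 15. They were Csf3, S100a9, Retnlg, Cxcl5, H2-Ea-ps, Cxcl1, Cxcl2 and G0s2. For the Cp-low class, 34 genes were then called, among them all 20. The S100a8-high library with the most S100a8 of all, MC38 IgG 2, had a sum of 8.13 CPM.

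**Figure D4:**
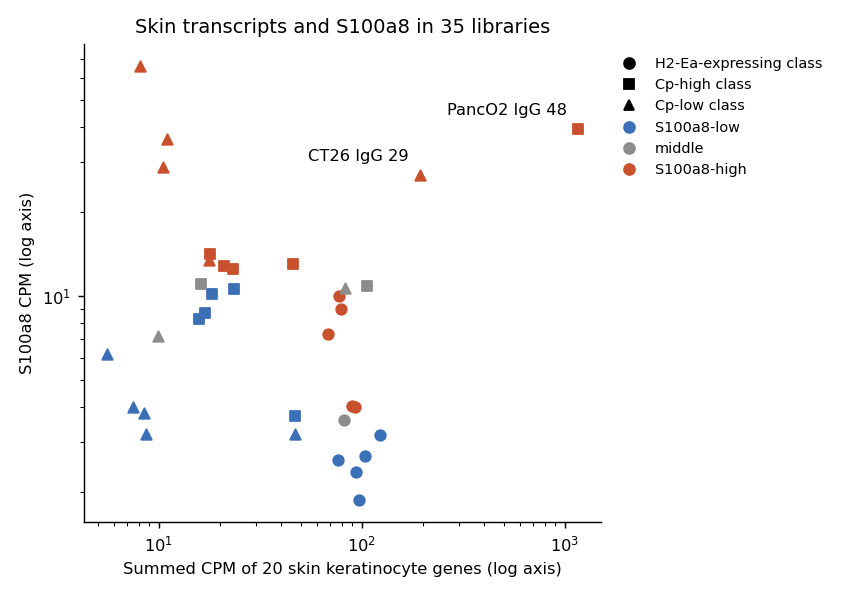
Summed CPM of 20 skin keratinocyte genes against S100a8 CPM in 35 libraries (both log axes), with the shape for class and the color for S100a8 group. The S100a8-high libraries PancO2 IgG 48 and CT26 IgG 29 stand apart, while the 3 libraries of the Cp-low class with the most S100a8 have sums under 11 CPM. For the H2-Ea-expressing class, the sum is mostly Lgals7.

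No gene was called in the lists for other cell types, and the values are given as counts and medians. All 6 skin genes that passed the filter were estimated higher (median 0.80). Of 9 genes for mast cells, basophils and eosinophils, 6 were estimated higher (median 0.78), with the mast cell protease gene Cma1 at 8.46 to 35.7 against 3.95 to 7.73 CPM in the Cp-high class and at 4.24 to 8.39 against 1.99 to 20.98 CPM in the H2-Ea-expressing class. Hdc, listed with the neutrophil effectors, had an estimate (1.15) close to those of Mcpt4 (1.15), Cma1 (1.05) and Cpa3 (0.95) on this list, of which 3 genes were estimated lower. Which cells its transcripts came from was not tested. Of 19 macrophage and monocyte genes, 14 were estimated lower (median -0.11). Among them, Csf1r, the macrophage growth factor receptor, had a log2 fold change of -0.34 (SE 0.09, adjusted p = 0.31) and the complement gene C1qa of -0.20 (SE 0.09, adjusted p = 0.53). The summed macrophage list ran from 5233 to 7520 CPM in the S100a8-high and from 4906 to 8361 CPM in the S100a8-low libraries. Whether any of these lists has a part in the differences above was not tested.

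The medians were 0.20 for 17 genes of T and NK cells, 0.09 for 10 of dendritic cells, 0.005 for 5 of B and plasma cells, 0.08 for 12 of fibroblasts, -0.15 for 10 of endothelial cells, 0.10 for 5 of adipocytes. The 9 red cell and platelet genes tested had a median of 0.33 over the 3 classes, but of -1.62 in the H2-Ea-expressing, 1.49 in the Cp-high and 0.89 in the Cp-low class, with 1, 9 and 9 of 9 estimated higher. Their summed level was 37.8 to 46.7 against 32.8 to 181 CPM, 26.7 to 279 against 25.9 to 123 CPM and 100.3 to 393 against 63.5 to 278 CPM. The 9 muscle genes likewise had a median of 0.10 over the 3 classes and of -0.47, -0.61 and 1.47 within them. The part of these transcripts in the differences above was not tested. All 18 hypoxia and glycolysis genes (median 0.20) and all 16 interferon-stimulated genes (median 0.20) were estimated higher and 0 were called, while 12 cell cycle genes had a median of -0.006.

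**Figure D5:**
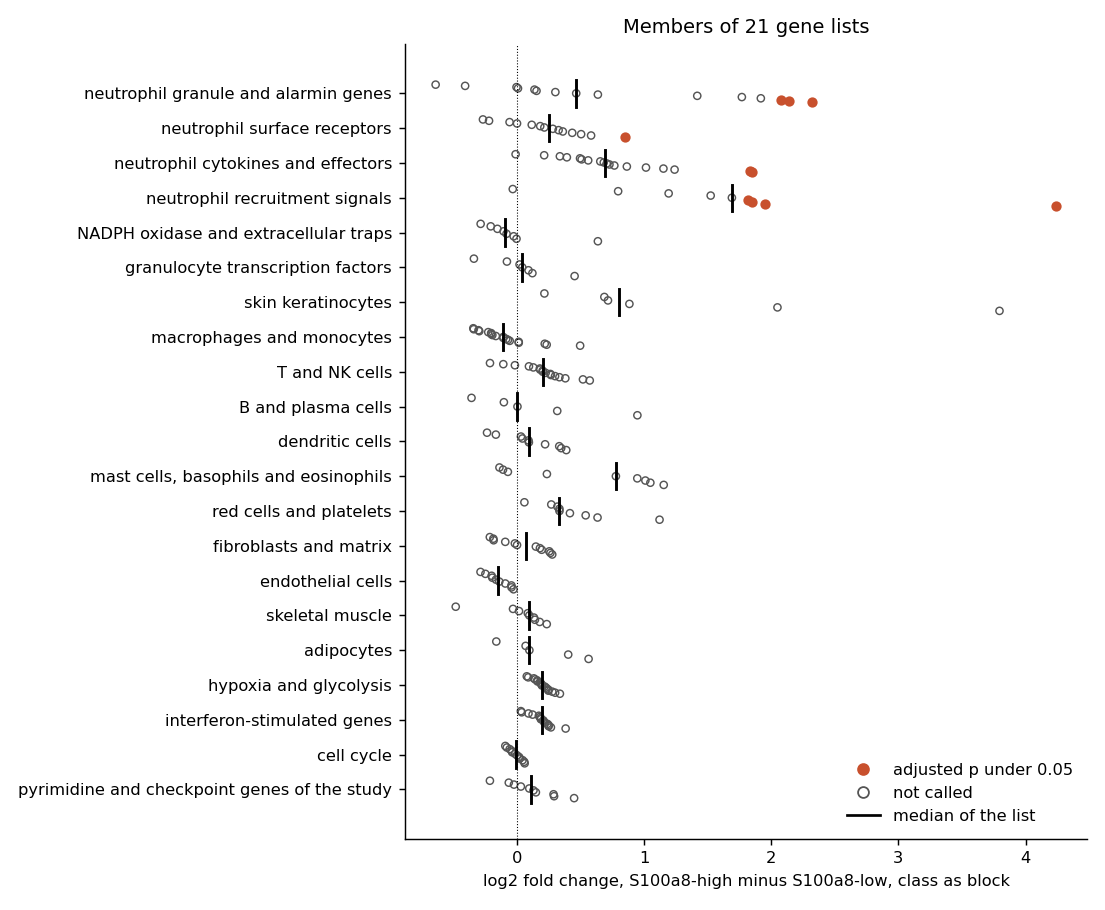
Log2 fold change (S100a8-high minus S100a8-low, class as block) of each tested member of 21 gene lists; filled points passed an adjusted p of 0.05, open points did not, and bars are list medians. Called genes occur only in the first 4 lists, and the recruitment signals have the highest median, 1.69.

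Cda, the cytidine deaminase gene on which the study centers, had a log2 fold change of 0.15 (SE 0.14, adjusted p = 0.77). Its level was 5.04 to 8.08 against 4.96 to 8.43 CPM in the H2-Ea-expressing, 13.3 to 21.3 against 9.11 to 20.2 CPM in the Cp-high and 3.68 to 8.74 against 3.11 to 6.05 CPM in the Cp-low class, so the groups overlapped throughout. P2ry6, the UDP receptor gene the study followed in macrophages, had a log2 fold change of -0.21 (SE 0.08, adjusted p = 0.49), with 11.8 to 16.5 against 16.1 to 22.9 CPM in the H2-Ea-expressing class and overlap in every class. None of the 10 pyrimidine and checkpoint genes tested was called (median 0.11).

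The 5 middle libraries took no part in the fits. Over the 14 called genes other than H2-Ea-ps, their 70 values lay between the medians of the S100a8-low and S100a8-high libraries of their class in 39 cases, at or below the lower median in 18 and at or above the higher in 13. MC38 anti-PD-1 17 was at or above the S100a8-high median for 7 genes and PancO2 anti-CTLA4 58 at or below the S100a8-low median for 9, although their S100a8 levels, 10.8 and 11.01 CPM, were almost the same.

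The last comparison asked how these genes stood by labelled treatment, over 35 libraries with class as a block. No gene of 17114 was called for anti-PD-1 or for anti-CTLA4 against IgG (0% each, edgeR), with 722 (4.22%) and 690 (4.03%) below an unadjusted p of 0.05. DESeq2 and limma-voom also called 0 in both. Over the 3 classes, the median S100a8 level was 10.6 CPM in 12 libraries labelled IgG (3.59 to 66.4), 8.67 in 11 labelled anti-PD-1 (2.35 to 13.0) and 5.13 in 12 labelled anti-CTLA4 (1.86 to 36.4), with wide overlap. The medians were 5.67, 2.69 and 2.89 CPM in the H2-Ea-expressing class and 14.1, 12.4 and 9.22 CPM in the Cp-high class, in the same order. The median S100a8 level in the Cp-low class was 26.995 CPM in 5 libraries labelled IgG (4.02 to 66.4), 3.81 in 3 labelled anti-PD-1 (3.20 to 7.21) and 9.82 in 4 labelled anti-CTLA4 (3.22 to 36.4). S100a9 had a log2 fold change of -1.04 (SE 0.47, adjusted p = 0.9998) for anti-PD-1 and of -1.23 (SE 0.43, adjusted p = 0.9998) for anti-CTLA4. Csf3 had -1.66 (SE 0.96) and -1.17 (SE 0.72). The skin list moved too, with 13 of 13 genes estimated lower under each antibody label (medians -2.40 and -2.76), and its part was not tested. Both comparisons share the IgG libraries, and the genes were chosen on most of the same libraries. With a term for the labelled treatment in the blocked fit, 4 of the 15 genes were called, Csf3, S100a9, Retnlg and Cxcl5.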

How the data were processed

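The deposited file holds raw read counts per Ensembl gene for 36 libraries of tumor mRNA (poly-A selection, TruSeq V2 kit by the labels). Per the labels and the study's methods for bulk RNA-seq, the authors mapped reads to the mouse genome (mm10) with TopHat and Bowtie and counted them with HTSeq, without normalization. Use of strand in counting is not given in the sources used here, so overlapping and antisense genes are uncertain, as are genes with close copies. The table held 37417 genes. Its 5 summary lines, 44.8% to 63.4% of reads in 35 libraries and 86.5% in PancO2 anti-PD-1 71, were dropped. Symbols came from GENCODE (GRCm38) for 32609 identifiers. Totals were 14059776 to 41751023 counts in S100a8-high and 11821687 to 34698970 in S100a8-low libraries. The library left out had 7883106 counts and 15.7% mitochondrial counts, against 2.80% to 4.35% in the others.

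Counts were tested with edgeR 4.0.16 in R 4.3.3 (filterByExpr, TMM, robust glmQLFit, glmQLFTest). One fit had class and S100a8 group as terms, a second 6 means (class by group), and another class and labelled treatment. Each SE was taken as log2 fold change over the root of F, and calls needed an adjusted p under 0.05. S100a8 was not tested. By the labels each library is a separate mouse, and p-values measure the spread between these libraries.

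The members, the 21 gene lists (279 of 283 genes in the table, 236 tested) and the tests were chosen with earlier results of these data known. Genes were named as list members, as called genes of at least 10 CPM without overlap in any class (1 gene, S100a9), as called in 1 class and by both tests of the difference (0 genes), or as Cda and P2ry6. Others are said to have been picked after their values were seen. Alternatives were DESeq2 1.42.0, limma-voom 3.58.1, other scaling, filters, rankings and covariates, and leaving out each library. Steps were tested on simulated data. Tables and figures used Python 3.11.15, pandas 2.3.3 and matplotlib 3.10.9.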

Additional observations from a re-analysis of the deposited data

Results flagged for a closer look

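Within the 6 groups of 5 libraries, 17 quantities (S100a8, the 15 called genes and the summed skin list) were searched for a library far from the others. This made 102 sets, and the search found 11. About 5.1 would be found by chance in independent sets of unselected values, which these are not. S100a8 set the groups, several quantities move together, and the Csf3 and H2-Ea-ps cases rest on 1 count beside libraries at 0. The number found is therefore no evidence of an excess.

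PancO2 IgG 48 stood above the other 4 S100a8-high libraries of the Cp-high class in S100a8 (39.4 CPM, others 12.4 to 14.1), S100a9 (63.1 CPM, others 14.7 to 20.3) and the summed skin list (1159 CPM, others 17.9 to 45.8). In the same class, CT26 anti-CTLA4 36 stood below the other S100a8-low libraries in S100a8 (3.72 CPM, others 8.26 to 10.6), and CT26 IgG 28 was the only one of them with a count of Csf3 (0.0548 CPM).

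In the Cp-low class, the summed skin list stood out in CT26 IgG 29 (193 CPM, other S100a8-high libraries 8.13 to 17.8) and in MC38 anti-CTLA4 11 (47.2 CPM, other S100a8-low libraries 5.59 to 8.62), and CT26 anti-PD-1 41 was the only S100a8-low library with a count of H2-Ea-ps (0.0352 CPM).

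Among S100a8-low libraries of the H2-Ea-expressing class, Cxcl1 was low in PancO2 anti-CTLA4 62 (7.48 CPM, others 12.6 to 14.2), Rab44 was low in CT26 anti-CTLA4 35 (0.761 CPM, others 1.34 to 1.54) and U90926 was high in MC38 anti-PD-1 16 (0.149 CPM, others 0 to 0.0326).

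In the library left out, PancO2 anti-PD-1 71, 7 of the 279 listed genes lay above 3 times the highest level of the other 35 libraries, and they mark several cell types. They were Siglech (69.6 CPM, others 0.205 to 5.11), a marker of plasmacytoid dendritic cells, Il5ra (38.4 CPM, others 0.304 to 2.44), the B cell genes Pax5 (19.03 CPM, others 0.0316 to 0.785), Cd79a (14.3 CPM, others 0.320 to 4.24) and Ms4a1 (2.79 CPM, others 0 to 0.300), and the neutrophil-listed genes Cxcr2 (89.4 CPM, others 3.65 to 17.3) and Mpo (10.5 CPM, others 0 to 1.80). S100a8 (2.54 CPM), S100a9 (3.55 CPM), Elane (0 counts) and Ltf (1 count) were low there. It also stood apart in depth and in mitochondrial counts.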

How the results depend on the processing

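No called gene changed direction under any alternative. Csf3, S100a9, Retnlg and Cxcl5 were called by the blocked fit with each library left out and under every other alternative in which they were tested. The 15 genes of that fit became 37 (34 higher) with DESeq2, 50 (47 higher) with ranking by S100a9, 76 (66 higher) with S100a8 as a slope over 35 libraries, 9 with a term for the skin list, 8 without the 2 libraries with most skin transcripts, 4 with a term for the labelled treatment and 2, S100a9 and Cxcl2, when 10 counts were required in every library, a filter that leaves out most of the 15. Leaving out single libraries gave 9 (without MC38 anti-CTLA4 11) to 39 genes (without CT26 anti-CTLA4 34), with 9 without PancO2 IgG 48 and 24 without MC38 anti-CTLA4 8. The 20 genes of the Cp-low class became 66 with DESeq2, 34 without the 2 skin-rich libraries, 11 with PancO2 anti-PD-1 71 kept, 9 with the treatment term, 6 with the 10-count filter and 2, Csf3 and Il6, when only the 10 libraries of that class were fitted, and 9 (without MC38 anti-CTLA4 11) to 29 (without PancO2 IgG 48) with single libraries left out, with 10 to 13 without CT26 anti-PD-1 41 or 40, MC38 IgG 2, CT26 IgG 24, MC38 anti-CTLA4 10 or PancO2 IgG 54. In the H2-Ea-expressing class, 0 became 7 (1 higher) with DESeq2, 1 with limma-voom and 0 to 2 with single libraries left out (2 without CT26 anti-CTLA4 35, 1 without MC38 anti-CTLA4 14). In the Cp-high class, 0 became 4 with DESeq2, 17 with ranking by S100a9 and 0 to 1 with single libraries left out (1 without MC38 IgG 7). The difference between classes gave 0 to 1 gene (1 without CT26 anti-CTLA4 35). Without a filter on low counts, the anti-PD-1 comparison with IgG went from 0 to 13. The causes of these shifts were not tested. No paired analysis was possible because each mouse number occurs once. Depth limits the scarce genes most. Csf3 had 8 and 67 counts over the S100a8-high libraries of the H2-Ea-expressing and Cp-high classes and U90926 14 and 25.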

Other observations

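S100a9 gave almost the same ranking as S100a8. When libraries were ranked by S100a9 instead, 4 changed place, all in the Cp-high class, where the split by S100a8 was narrow. In that class, 17 genes were then called (edgeR, adjusted p under 0.05), 13 higher and 4 lower, and they are named here after their values were seen. Ccl2 and Ccl7, which encode chemokines for monocytes, ran from 55.3 to 126 against 14.4 to 45.6 CPM (log2 fold change 1.87, SE 0.28, adjusted p = 0.0060) and from 43.9 to 127 against 7.63 to 33.5 CPM (2.12, SE 0.35, adjusted p = 0.0090). The mast cell protease gene Mcpt1 ran from 1.23 to 11.7 against 0 to 0.548 CPM (4.12, SE 0.65, adjusted p = 0.0060). Also higher were Tph1, the enzyme that starts serotonin synthesis (2.49, SE 0.50, adjusted p = 0.044), Cdh1, which encodes E-cadherin (1.45, SE 0.24, adjusted p = 0.0082), and Socs3, an inhibitor of cytokine signaling (0.89, SE 0.17, adjusted p = 0.033). Arrdc2 was lower (-1.999, SE 0.33, adjusted p = 0.0082), although its groups overlapped at 15.1 to 21.99 against 16.6 to 160 CPM. Under this ranking, the skin list summed to 17.9, 21.1, 45.8, 107 and 1159 CPM in the high libraries of the class, against 16.2 to 47.0 CPM in the low libraries. The part of skin in these 17 calls was not tested.

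With the same ranking over all 3 classes, 50 genes were called, 14 of them among the 15 called with S100a8. S100a9, also among the 15, set this ranking and was not tested under it. Il1b (1.53, SE 0.28, adjusted p = 0.0061), Osm (1.05, SE 0.17, adjusted p = 0.0012), Hdc (1.33, SE 0.22, adjusted p = 0.0016) and Il6 (1.79, SE 0.35, adjusted p = 0.013) passed the threshold under this ranking.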
